A study of Mus musculus with 8 samples.

Results

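The genes described here are 10 secreted cytokines and growth factors that senescent fibroblasts are known to release: the cytokine genes Il6, Il1a, Il1b and Lif, the colony-stimulating factor genes Csf1 and Csf2, the growth factor genes Hgf and Fgf7, the decoy receptor gene Tnfrsf11b and the protease gene Plau. They were taken by gene symbol from the array annotation. Chemokines, matrix metalloproteinases and insulin-like growth factor binding proteins, which belong to the same secretory programme, were left out. Each of the 10 genes had 1 probe set with a single gene symbol, so all 10 were measured among 19938 genes on 8 arrays.

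The arrays held RNA of mouse embryonic fibroblasts in primary culture. There were 4 groups of 2 samples. Line A (MEF10) given tamoxifen expressed the PKM1 form of pyruvate kinase, and line A left without the drug expressed PKM2; line B (MEF16) was likewise PKM1 after tamoxifen and PKM2 otherwise. Tamoxifen and the isoform go together in all 8 samples, so their parts cannot be told apart, and the labels give neither the alleles nor the dose and duration of the drug. They do not say whether samples of a group were separate cultures either, so p-values reflect how far these samples scattered, perhaps for technical reasons alone. The question is whether these secreted factors differ when cells switch from PKM2 to PKM1, and whether the answer is the same in both lines.

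Senescent cells stop dividing and secrete a mixture of cytokines, growth factors and proteases. In this programme membrane-bound IL-1 alpha acts on the cell that carries it and, through the transcription factors NF-kappaB and C/EBP beta, drives transcription of IL-6 and other cytokines. IL-6 and LIF signal through the shared receptor chain gp130 to STAT3, and growth factors such as HGF and FGF7 act on neighbouring epithelium. In fibroblast cultures some of these factors, FGF7 and CSF1 among them, are also made by dividing cells.

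The promoters of Il6 and Csf1 are shown because they were the members' promoters with a match to an NF-kappaB type motif. RefSeq promoter sequences (build GRCm38.p6, 250 bases before to 50 after the start of the gene) were found for 8 of the 10 members, 9 sequences in all since Hgf has a pair. The motif searched, on both strands, was GGGA and TTCC with any 2 bases between them. It occurred in 2 of the 9 sequences, against 1.47% of 32851 promoters in the table. The letters are given along the gene's strand, in lower case with the matches in capitals; in Il6 the first match is to the AP-1 type motif TGANTCA and the second to the NF-kappaB type motif.
Il6 promoter, chr5:30012864-30013163, plus strand: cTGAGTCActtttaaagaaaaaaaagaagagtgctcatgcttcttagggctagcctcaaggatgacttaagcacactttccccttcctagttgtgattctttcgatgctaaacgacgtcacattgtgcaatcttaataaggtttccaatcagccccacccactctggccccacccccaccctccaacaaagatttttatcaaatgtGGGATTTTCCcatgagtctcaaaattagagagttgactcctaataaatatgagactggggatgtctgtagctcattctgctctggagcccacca
Csf1 promoter, chr3:107760420-107760719, minus strand: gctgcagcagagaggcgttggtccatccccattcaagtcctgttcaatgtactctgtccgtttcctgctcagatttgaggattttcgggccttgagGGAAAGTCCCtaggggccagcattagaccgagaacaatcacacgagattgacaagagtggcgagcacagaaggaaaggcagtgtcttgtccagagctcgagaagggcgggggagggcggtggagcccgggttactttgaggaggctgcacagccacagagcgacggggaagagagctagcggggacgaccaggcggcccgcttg
The NF-kappaB type match, GGGATTTTCC, began 44 bases before the start of Il6. That of Csf1 began 154 bases before the start and lay on the opposite strand, so the letters read GGAAAGTCCC. TGANTCA reads the same on both strands apart from its middle base; it was also found in the promoters of Il1a and Lif, and 7.81% of all promoters held it. The motif TATAAA was found in those of Il1a and Il1b and in 13.6% of all promoters. The motifs were not found to overlap within these windows. A match describes letters only and shows no binding.

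Values are log2 expression values as the authors normalized them, and differences are log2 differences, with tamoxifen minus without it where no other direction is given. They carry standard errors (SE), 95% intervals and Benjamini-Hochberg adjusted p-values over all 19938 genes from limma. The 2 samples of a group correlated at 0.9894 (line B with tamoxifen) to 0.9974 (line A with tamoxifen), and the median gap between them over all genes was 0.0778 and 0.106 in the groups of line A and 0.148 and 0.154 in those of line B. Pkm, which encodes both isoforms, averaged 10.94 with and 11.05 without tamoxifen (difference -0.11, SE 0.15); the exons its probes match were not analysed here, so this does not check the exchange. All 9 measured fibroblast markers lay above the 95th percentile of the 1194 olfactory and vomeronasal receptor genes, which fibroblasts should not express. Their mean level per sample was between 10.73 and 11.13. Above that percentile were also 5 of 7 epithelial, 5 of 15 blood cell and 1 of 6 endothelial markers. Lying above it therefore does not identify a cell type. Fewer cells of a type and less RNA per cell cannot be told apart in such bulk samples.

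The brightness of the members set what could be seen. That 95th percentile lay at a log2 value of 6.84, and 7 of the 10 members had a mean over the 8 samples above it. Il1a (mean 4.85), Csf2 (5.29) and Il1b (6.54) did not, so their values cannot be told from background by this measure. Il1a was brighter than 43.2%, Csf2 than 59% and Il1b than 90.5% of the receptor genes. No detection calls were used, and a change in a dim probe set is understated.

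Il6 was the member that differed most with tamoxifen, and its adjusted p-value fell just short of the threshold. Il6 encodes IL-6, the inflammatory cytokine that is most often measured in the senescent secretome. Its log2 values were 8.79 and 8.93 in line A with tamoxifen, against 7.73 and 8.34 in line A without. In line B they were 8.88 and 9.58 with tamoxifen, against 8.67 and 8.42 without. All 4 samples with tamoxifen were above all 4 without, but the samples of a group lay up to 0.699 apart (line B with tamoxifen), the widest gap of any member.

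Over both lines Il6 averaged 9.05 with tamoxifen and 8.29 without, 1.69-fold higher (log2 difference 0.75, SE 0.16, n = 8 samples, 95% interval 0.39 to 1.12, limma adjusted p = 0.060). The unadjusted p was 0.00089. The separation of the samples was found for 2.56% of all genes in this direction. In line B the difference was 0.68 (SE 0.25, adjusted p = 0.87) and in line A 0.83 (SE 0.25, adjusted p = 0.32). The difference between these effects, line B minus line A, was -0.14 (SE 0.35, 95% interval -0.94 to 0.65).

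Leaving out 1 of the arrays, or weighting the arrays by quality, moved Il6 past the threshold. Without line B PKM1 replicate 1 the difference over both lines was 0.91 and passed (adjusted p = 0.011), and with arrays weighted by quality it was 0.63 and passed (adjusted p = 0.016). Without any other 1 of the arrays it was between 0.62 and 0.86 and did not pass, with adjusted p-values up to 0.25. The difference was above 0 in all 17 alternative settings.

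**Figure D1:**
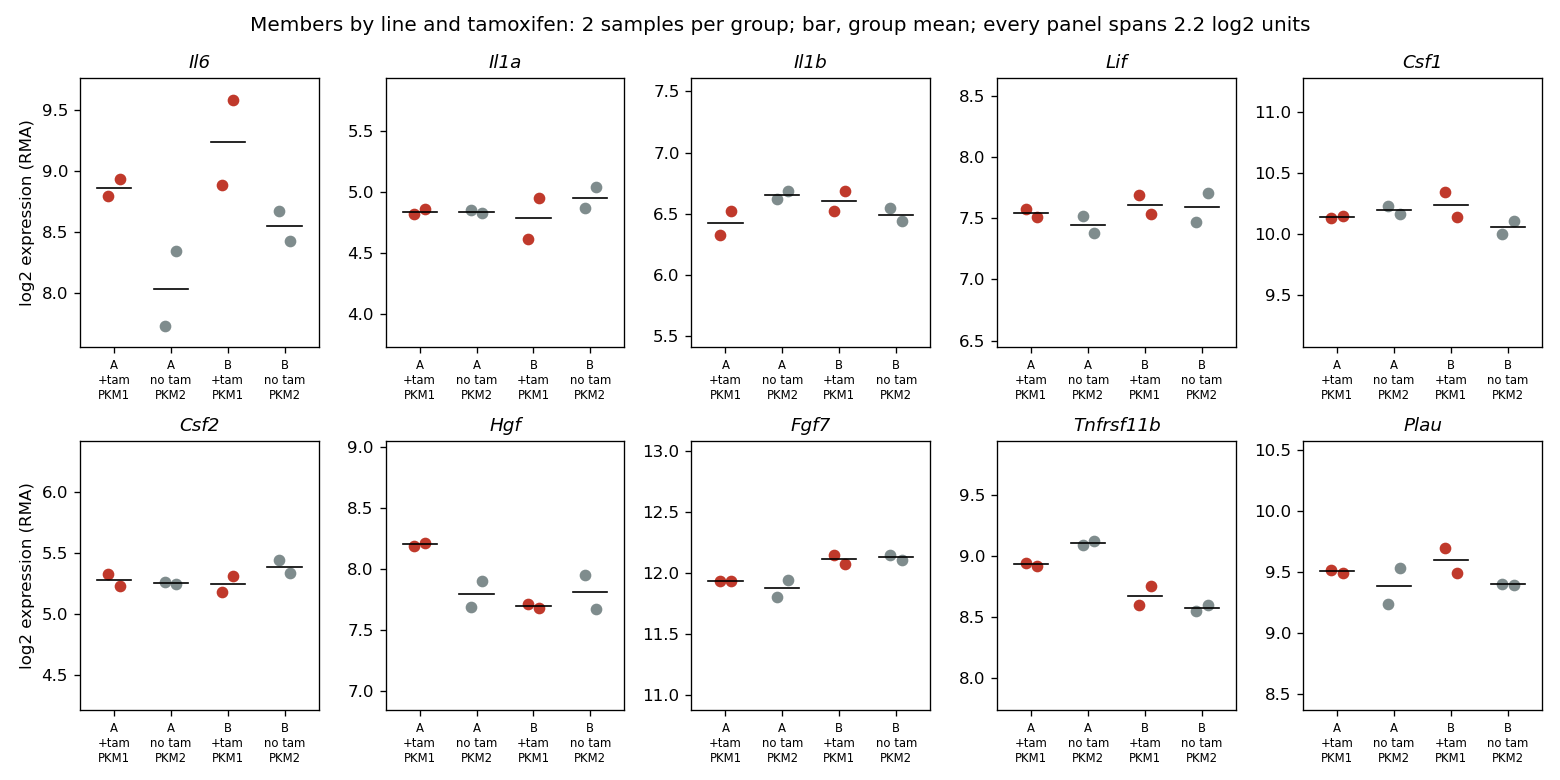
Log2 expression of the 10 members (vertical axes, each spanning the same number of log2 units) in the 4 groups; points are samples, bars are the means of the 2 samples of a group, red with and grey without tamoxifen. The Il6 samples with tamoxifen lie at 8.79 or higher and those without at 8.67 or lower, while the Tnfrsf11b samples of line B lie below those of line A.

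None of the other cytokines, Il1a, Il1b and Lif, passed the test with tamoxifen. Il1a, which encodes the cell-bound cytokine upstream of IL-6, was at 4.82 and 4.86 in line A with tamoxifen and at 4.85 and 4.83 in line A without, and at 4.62 and 4.95 in line B with tamoxifen and 4.87 and 5.04 in line B without. The groups overlapped over both lines (difference -0.08, SE 0.09, 95% interval -0.28 to 0.11). Il1b, the secreted relative that inflammasomes activate, was at 6.32 and 6.53 in line A with tamoxifen, against 6.62 and 6.69 in line A without. In line B its values were 6.52 and 6.68 with tamoxifen, against 6.55 and 6.44 without. The lines thus had opposite signs (-0.23, SE 0.11, in line A and 0.11, SE 0.11, in line B), and over both lines the difference was -0.06 (SE 0.09). Lif, whose product acts through gp130 like IL-6, was at 7.58 and 7.51 in line A with tamoxifen, 7.52 and 7.38 in line A without, 7.69 and 7.54 in line B with tamoxifen and 7.47 and 7.71 in line B without. Its difference over both lines was 0.06 (SE 0.08, 95% interval -0.11 to 0.23).

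The colony-stimulating factors did not pass either. Csf1 encodes the growth and survival factor of macrophages, and Csf2 that of granulocytes and macrophages. Csf1 was at 10.13 and 10.15 in line A with tamoxifen and at 10.23 and 10.17 in line A without, and at 10.34 and 10.14 in line B with tamoxifen and 10.004 and 10.11 in line B without. It was thus slightly below its level without tamoxifen in line A (-0.06, SE 0.10) and slightly above it in line B (0.19, SE 0.10), and the difference over both lines was 0.06 (SE 0.08, 95% interval -0.11 to 0.24). Csf2, at 5.18 to 5.44 in all 8 samples, had a difference of -0.06 (SE 0.07).

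Hgf passed in none of the comparisons. It encodes hepatocyte growth factor, which fibroblasts make and epithelial cells sense through the receptor Met. Its values were 8.19 and 8.21 in line A with tamoxifen, against 7.69 and 7.90 in line A without. In line B they were 7.71 and 7.68 with tamoxifen, against 7.95 and 7.67 without. The samples of line A with tamoxifen were the brightest of the 8, and the other 6 overlapped. The tamoxifen effect was -0.12 in line B (SE 0.12, 95% interval -0.39 to 0.16) and 0.41 in line A (SE 0.12, 95% interval 0.14 to 0.68, adjusted p = 0.30). The difference of the effects was -0.52 (SE 0.17, unadjusted p = 0.013, limma adjusted p = 1.00), where 2.83% of all genes had an unadjusted p this side of 0.05 and 0 passed after adjustment.

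Fgf7, which encodes keratinocyte growth factor, had samples with and without tamoxifen that overlapped in both lines. It was at 11.93 and 11.94 in line A with tamoxifen, against 11.80 and 11.94 without, and at 12.15 and 12.08 in line B with tamoxifen, against 12.15 and 12.11 without. The difference over both lines was 0.02 (SE 0.06, 95% interval -0.12 to 0.17). Plau encodes urokinase, the protease that turns plasminogen into plasmin. Its values were 9.52 and 9.50 in line A with tamoxifen and 9.24 and 9.53 in line A without, and 9.70 and 9.49 in line B with tamoxifen and 9.40 and 9.39 in line B without. The groups overlapped in line A and not in line B, and the difference over both lines was 0.16 (SE 0.08, 95% interval -0.02 to 0.34, adjusted p = 0.59).

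Over both lines 0 of the 10 members passed in limma, against 1.32% of all genes, and 1 had an unadjusted p under 0.05, against 9.85% of all genes. In line A 0 of 10 passed (0.502% of all genes) and 2, Il6 and Hgf, had an unadjusted p under 0.05 (8.1% of all genes). In line B 0 of 10 passed (0.0201% of all genes) and 1, Il6, had an unadjusted p under 0.05 (4.82% of all genes). Within a line, groups of 2 rarely say much by their separation: 5 members did not overlap in line A, against 47.6% of all genes, and 4 in line B, against 24.8% of all genes. Il6 was the only member above its level without tamoxifen by this measure in both lines. The share of all genes that were so in both lines was not computed. The median difference of the members was 0.04 over both lines, against -0.01 for all genes; 6 of the 10 were above 0. For the 9 members other than Il6 the differences over both lines ran from -0.08 to 0.16, and their 95% intervals together reached from -0.28 to 0.40. In line A the 9 intervals reached from -0.48 to 0.68 and in line B from -0.45 to 0.47.

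**Figure D2:**
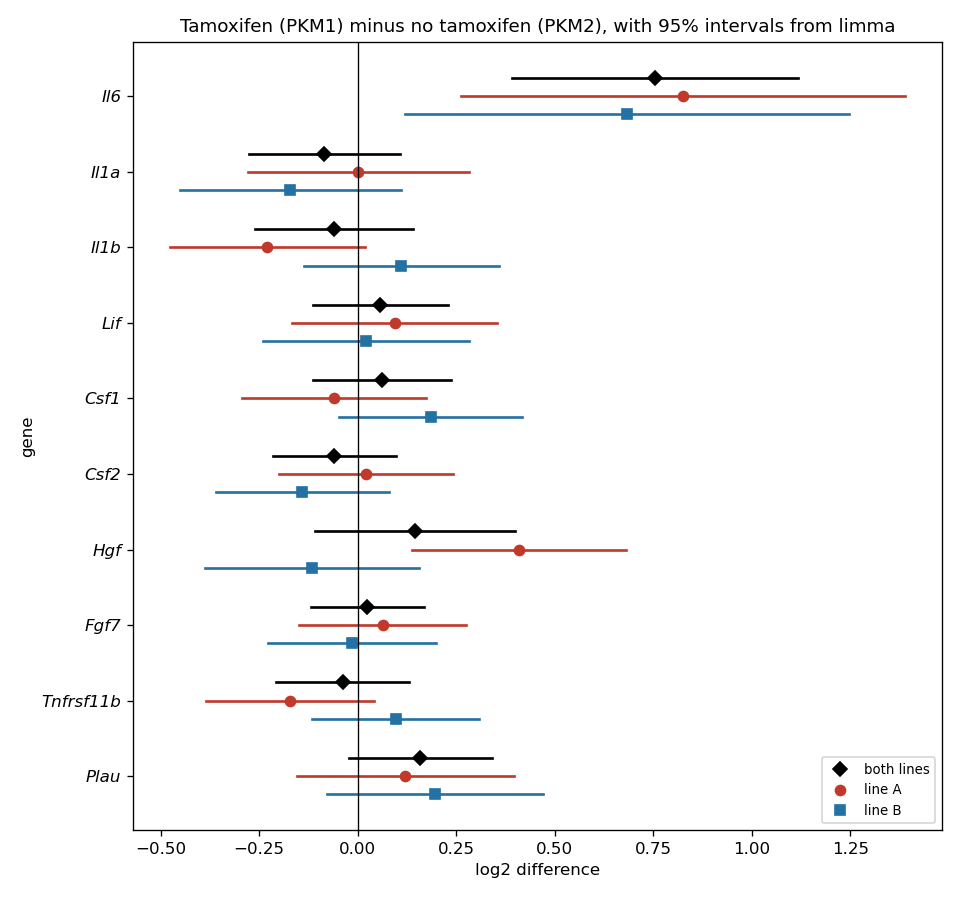
Log2 difference, tamoxifen minus no tamoxifen, of each member (horizontal axis) with its 95% interval from limma, over both lines, in line A and in line B. The intervals of Il6 lie above 0 in all 3 fits, that of Hgf lies above 0 in line A only, and the rest include 0.

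The partners of the members were read from lists chosen with earlier results of these data known. Of 15 measured receptors and receptor partners, 0 passed over both lines in limma, against 1.32% of all genes. An unadjusted p under 0.05 was found for 2 of them, against 9.85% of all genes. In line A 1 of the 15 rose, against 0.502% of all genes that passed in either direction. It was Lifr, the LIF receptor that pairs with gp130, at 8.94 and 8.93 with tamoxifen, against 8.08 and 8.18 without (difference 0.80, SE 0.13, adjusted p = 0.048). In line B Lifr was at 8.45 and 8.53 with tamoxifen, against 8.44 and 8.03 without (difference 0.25, SE 0.13). Over both lines Lifr differed by 0.53 (SE 0.12, limma adjusted p = 0.085). All samples with tamoxifen were above all without, a separation found in this direction for 2.56% of all genes. In line A Lifr passed in 9 of 16 alternative settings, and without any 1 of the 4 arrays of line A it did not (0.75 to 0.85, adjusted p-values up to 0.47). The gp130 gene Il6st itself differed by -0.25 over both lines (adjusted p = 0.26), and the IL-6 receptor gene Il6ra by -0.06.

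Of 10 measured inhibitors and activators, 1 rose over both lines, against 1.32% of all genes that passed in either direction. This gene, Serpinb2, encodes a serpin that inhibits urokinase. It was at 7.64 and 7.62 in line A with tamoxifen, against 6.95 and 7.05 without, and at 7.52 and 7.86 in line B with tamoxifen, against 7.41 and 7.10 without. All samples with tamoxifen were above all without (difference 0.54, SE 0.10, adjusted p = 0.029), a separation found in this direction for 2.56% of all genes. The mean of Serpinb2, 7.39, lay above the 95th but below the 99th percentile of the receptor genes (7.57). It passed in 10 of 17 alternative settings, all in the same direction. Without any 1 of the 4 arrays of line A, line B PKM2 replicate 2 or line B PKM1 replicate 2 it did not pass (0.49 to 0.54, adjusted p-values up to 0.15). Il1rn, which encodes the IL-1 receptor antagonist, did not pass with tamoxifen (-0.27, SE 0.07, adjusted p = 0.11).

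The list of relatives held 19 measured secreted factors, some of them of other families than the members. Over both lines 0 passed in limma, against 1.32% of all genes, and 3 had an unadjusted p under 0.05, against 9.85%. In line A 1 gene of the list rose, against 0.502% of all genes that passed in either direction. It was Il33, which encodes an alarmin of the IL-1 family, at 6.67 and 6.75 with tamoxifen, against 5.89 and 5.92 without (difference 0.81, SE 0.11, adjusted p = 0.028). In line B it was at 6.11 and 6.40 with tamoxifen, against 6.08 and 5.98 without (0.23, SE 0.11). Over both lines Il33 differed by 0.52 (SE 0.12, limma adjusted p = 0.074). Its samples with tamoxifen were all above those without, as were those of 2.56% of all genes. Without any 1 of the 4 arrays of line A the call in line A was lost (0.76 to 0.85, adjusted p-values up to 0.38). Its mean over both lines stayed below the 95th percentile of the receptor genes. Il18, another member of that family, differed by 0.59 over both lines (adjusted p = 0.063).

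None of the measured regulators and targets of these cytokines passed in limma over both lines, against 1.32% of all genes. An unadjusted p under 0.05 was found for 9.85% of all genes. Of 18 measured NF-kappaB and C/EBP regulators 0 passed, 0 had an unadjusted p under 0.05, and their differences ran from -0.16 to 0.13 with a median of -0.01, the same as for all genes. The smallest p-values were those of Gata4 (-0.16, SE 0.08) and Cebpd (0.13, SE 0.09), transcription factors tied to inflammatory gene expression. The means of Relb (6.76) and Nfkbie (6.32) lay below the 95th percentile of the receptor genes. Their values thus cannot be told from background by this measure. Nfkb1, Chuk and Irak4 were on the list of regulators but were not analysed here. Of 13 genes of IL-6 family signalling 0 passed in limma and 0 had an unadjusted p under 0.05, with a median of -0.01. Fgg, an acute phase gene of liver, differed by -0.14 (SE 0.07) and Il4ra by -0.15 (SE 0.08). The mean of Fgg, 4.93, lay below the median of the receptor genes (5.04). Those of Tyk2, Lcn2 and Saa3 lay below the 95th percentile of the receptor genes. The values of Fgg, Tyk2, Lcn2 and Saa3 thus cannot be told from background by this measure. Socs3, the feedback inhibitor that STAT3 induces, differed by -0.03.

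Of 7 measured genes of senescence and proliferation, 5 had an unadjusted p under 0.05 in limma over both lines, against 9.85% of all genes. Of the 7, 3 passed and fell, against 1.32% of all genes that passed in either direction. They were the cyclin gene Ccna2 (-0.67, SE 0.09, adjusted p = 0.0073), the proliferation marker Mki67 (-0.70, SE 0.09, adjusted p = 0.0059) and Lmnb1 (-0.46, SE 0.09, adjusted p = 0.042), the nuclear lamina gene whose loss marks senescent cells. Lmnb1 was at 8.43 and 8.53 in line A with tamoxifen, against 8.96 and 8.94 without, and at 8.44 and 8.83 in line B with tamoxifen, against 9.19 and 8.96 without. The samples with tamoxifen were below those without, and Lmnb1 passed in 7 of 17 alternative settings; of the leave-outs of single arrays it passed only without line B PKM1 replicate 2, with differences between -0.38 and -0.54 over all of them. Ccna2 did not pass without line A PKM1 replicate 1 (-0.63, adjusted p = 0.051) or replicate 2 (-0.65, adjusted p = 0.052), and Mki67 passed in all 17 settings. In line A 2 of the 7 fell, against 0.502% of all genes. In line B 0 passed in limma, against 0.0201% of all genes, and 3 had an unadjusted p under 0.05, against 4.82%. Hmgb2, a chromatin protein gene of dividing cells, differed by -0.53 over both lines and did not pass (adjusted p = 0.14). Cdkn2a, which encodes the cell cycle inhibitor p16 and the p53 activator Arf, differed by 0.00. Its mean of 7.10 lay above the 95th but below the 99th percentile of the receptor genes (7.57). The cell cycle inhibitor gene Cdkn2b differed by 0.22 over both lines (SE 0.07, limma adjusted p = 0.25), with 0.21 in line A and 0.23 in line B. Glb1 differed by 0.10 (SE 0.15).

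**Figure D3:**
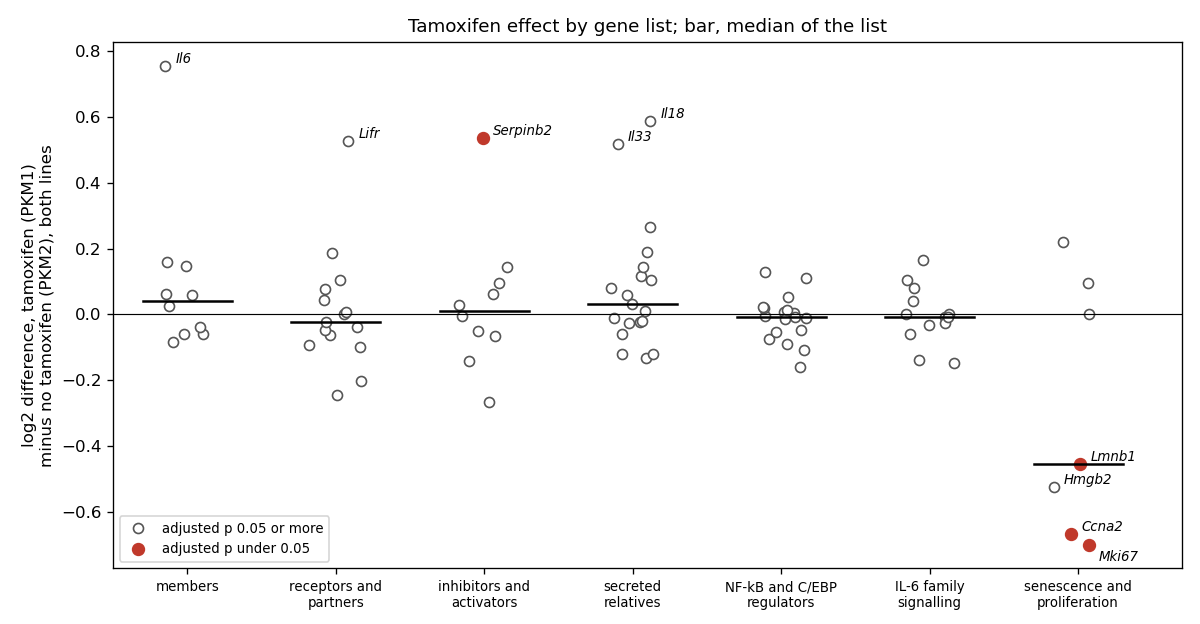
Log2 difference over both lines, tamoxifen minus no tamoxifen (vertical axis), of every measured gene of the members and of the 6 further lists; filled points passed an adjusted p of 0.05, bars are list medians, and genes farther than most from 0 are named. Among the members Il6 stands alone at 0.75; Serpinb2 is the filled point above 0, and Ccna2, Mki67 and Lmnb1 are those below.

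The lines differed in Tnfrsf11b. This gene encodes osteoprotegerin, a decoy receptor that binds the bone cytokine RANKL. Its values were 8.60 and 8.75 in line B with tamoxifen, against 8.94 and 8.92 in line A with tamoxifen. Without tamoxifen they were 8.55 and 8.60 in line B, against 9.09 and 9.12 in line A. All 4 samples of line B were below all 4 of line A, a separation found in this direction for 1.93% of all genes. In all 8 samples the line B mean was 8.63 and the line A mean 9.02 (line B minus line A -0.39, SE 0.08, 95% interval -0.56 to -0.22, adjusted p = 0.033), a comparison added after the values were seen. It was -0.53 without tamoxifen (SE 0.09, adjusted p = 0.085) and -0.26 with tamoxifen (SE 0.09, adjusted p = 0.57). The call did not hold without any 1 of 7 arrays, with adjusted p-values up to 0.16 and differences between -0.36 and -0.42; it held without line B PKM1 replicate 2 (-0.45, adjusted p = 0.017).

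With tamoxifen Tnfrsf11b differed by -0.17 in line A and 0.10 in line B (SE 0.09 for each), and its difference over both lines was -0.04. Fgf7 was the other member whose lines did not overlap, higher in line B, as 2.96% of all genes were. It averaged 12.12 in line B and 11.90 in line A over both treatments (difference 0.22, SE 0.06, adjusted p = 0.22). Il6 averaged 8.89 in line B and 8.45 in line A (0.44, SE 0.16, adjusted p = 0.41), and the samples overlapped.

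Of the 10 members 1 passed between the lines over both treatments, against 1.47% of all genes, and 3 had an unadjusted p under 0.05, against 8.15% of all genes. Without tamoxifen 0 of 10 passed (0.326% of all genes), and Fgf7 and Tnfrsf11b had an unadjusted p under 0.05, against 5.2% of all genes. With tamoxifen 0 passed (0.532% of all genes), with Hgf (-0.51, SE 0.12, adjusted p = 0.19) and Tnfrsf11b at an unadjusted p under 0.05, against 6.72% of all genes. The group means of Il6, lowest first, were 8.04 in line A and 8.55 in line B for the cultures without tamoxifen and 8.86 in line A and 9.23 in line B for those with it, and the samples of the 2 groups with tamoxifen overlapped. For Tnfrsf11b the order was line B without tamoxifen (8.58), line B with (8.68), line A with (8.93) and line A without (9.11), with overlap between the line B groups alone. For Hgf the means were 7.70 in line B with tamoxifen, 7.79 in line A without it, 7.81 in line B without it and 8.20 in line A with it, and only the last group did not overlap its neighbour.

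Of the 15 measured receptors and receptor partners 2, Fgfr2 and Il6st, were lower in line B over both treatments, and of the 10 inhibitors and activators 1, Il1rn, against 1.47% of all genes that passed in either direction. With tamoxifen alone 1 of the 15 (Fgfr2) and 1 of the 10 (Il1rn) passed, against 0.532% of all genes. Without tamoxifen 0 of either list passed in limma, against 0.326% of all genes. At an unadjusted p under 0.05 were 4 of the 15 and 1 of the 10, against 5.2% of all genes. In line B with tamoxifen Fgfr2, whose epithelial splice form binds FGF7, was at 8.49 and 8.54, against 9.31 and 9.24 in line A with tamoxifen (line B minus line A -0.76, SE 0.09, adjusted p = 0.014). Without tamoxifen it was at 8.77 and 8.67 in line B, against 9.23 and 9.29 in line A. Il1rn was at 10.31 and 10.28 in line B with tamoxifen, against 10.93 and 10.98 in line A with tamoxifen (-0.66, SE 0.09, adjusted p = 0.025). With tamoxifen the call of Fgfr2 was lost without any 1 of the 4 arrays with tamoxifen (-0.72 to -0.80, adjusted p-values up to 0.23). That of Il1rn was lost without any 1 of these or of the 2 arrays of line A without tamoxifen (-0.63 to -0.69, adjusted p-values up to 0.34). Over both treatments Fgfr2 differed by -0.65 (SE 0.07, adjusted p = 0.0013) and Il1rn by -0.59 (SE 0.07, adjusted p = 0.0015). Il6st differed by -0.40 (SE 0.08, adjusted p = 0.035) and Fgf10, the close relative of Fgf7 and the 1 gene of the 19 relatives that passed, by -0.75 (SE 0.11, adjusted p = 0.0059).

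Markers of blood cells also moved with the line. Of 15 measured markers of macrophages and other blood cells, 9 were higher in line B and 0 lower over both treatments, against 1.47% of all genes that passed in either direction, with a median difference of 0.51. Of the 15, 5 had a mean above the 95th percentile of the receptor genes, and of the 9 that passed 3 did (Lyz2, Tyrobp and Fcer1g), while Adgre1, Cd52, Laptm5, Mpeg1, C1qb and C1qc did not. Their mean level was 7.09 to 7.12 in line B with tamoxifen, against 6.51 to 6.55 in line A with tamoxifen, and 6.97 to 6.98 in line B without, against 6.43 to 6.51 in line A without. Lyz2, a lysozyme gene of macrophages, differed by 1.83 (SE 0.16). Csf1r, the receptor of CSF1 and a defining macrophage marker, had a mean of 6.59, below that percentile, as did Adgre1 (5.90), Itgam (5.84) and Ptprc (6.56). With tamoxifen 0 of the 15 passed in limma over both lines, against 1.32% of all genes, and their median difference was 0.09. An unadjusted p under 0.05 was found for 3 of the 15, against 9.85% of all genes. Of 9 fibroblast markers 1, Thy1, was higher in line B over both treatments (0.57, SE 0.07, adjusted p = 0.0017), and it passed without tamoxifen too (0.64, SE 0.09, adjusted p = 0.033). Of 6 endothelial markers 1, Emcn, was higher in line B (1.05, SE 0.11), with a mean of 6.62 over all samples, below that percentile. Of 7 epithelial markers 0 passed between the lines in limma and 0 had an unadjusted p under 0.05. The part of these cells in the differences between the lines was not tested.

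**Figure D4:**
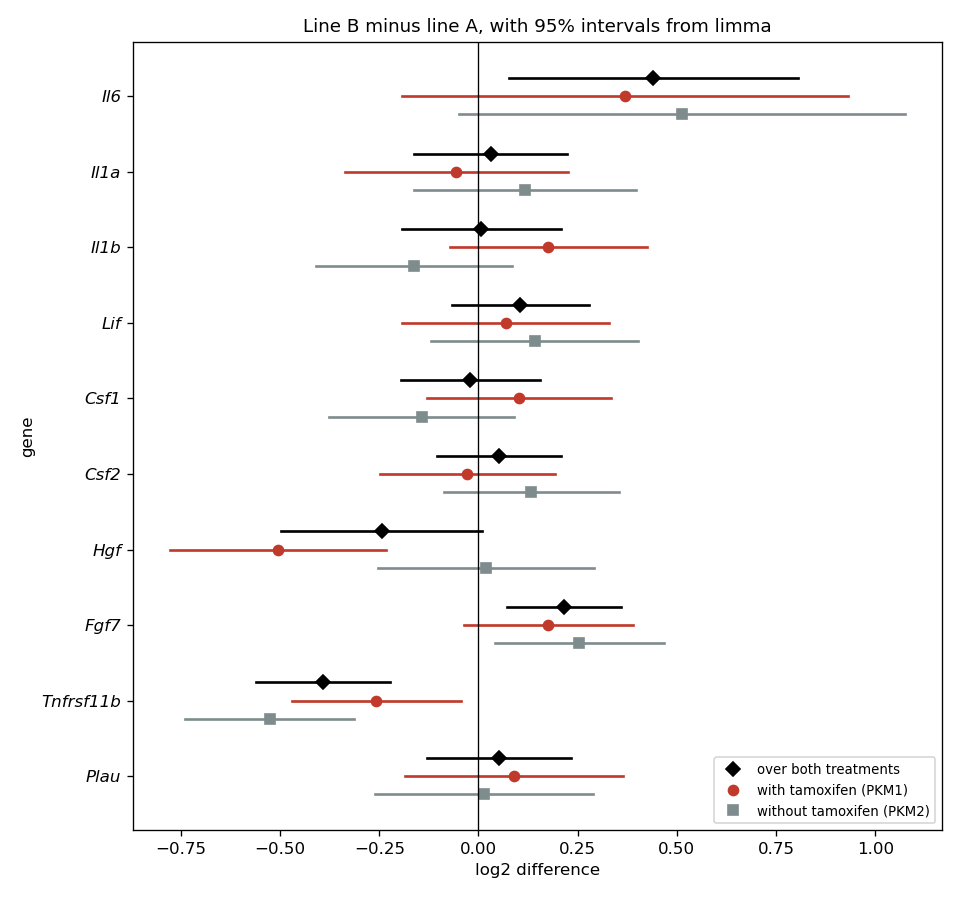
Log2 difference, line B minus line A, of each member (horizontal axis) with its 95% interval from limma, over both treatments, with and without tamoxifen. The interval of Tnfrsf11b lies below 0 in all 3 fits, that of Fgf7 above 0 over both treatments and without tamoxifen, that of Il6 above 0 over both treatments, and that of Hgf below 0 with tamoxifen; the rest include 0.

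The 3 members with the widest range over the 8 samples were Il6 (1.85), Tnfrsf11b (0.57) and Hgf (0.54), and for each the genes with the most similar profile were found by the root mean square difference of mean-centred log2 values. Nearest to Il6 were Prl2c5 (0.163), Tac1 (0.180) and Rbm46 (0.192), against a root mean square deviation of Il6 from its own mean of 0.502. Prl2c5 encodes a proliferin, one of a family of near-identical hormones whose probes may match several relatives, and Tac1 the precursor of the neuropeptide substance P. Since likeness to Il6 chose these genes, their differences with tamoxifen over both lines, 0.69 for Prl2c5, 0.77 for Tac1 and 0.50 for Rbm46, are a description. All 8 values of Tac1, 5.11 to 6.46, lay below the 95th percentile of the receptor genes. Nearest to Tnfrsf11b were Ptprq (0.0692), Ptx3 (0.0820), which encodes an inflammatory pentraxin, and Sh2d1b1 (0.0830), against 0.212 for its own deviation. Nearest to Hgf were Vwa5a (0.0545), Fam162a (0.0583) and Glrb (0.0592), against 0.213.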

How the data were processed

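RNA from 8 samples of mouse embryonic fibroblasts (4 groups of 2) was hybridised to Affymetrix microarrays. The deposited table holds log2 values that the authors obtained, per the labels, with the RMA method of Expression Console (version not given in the sources used here). That method subtracts background, gives all arrays a common distribution and summarises probe sets, which compresses differences between dim ones. Some label fields speak of mammary tumors, the titles and design text of fibroblasts, and the titles set the groups. GEO's platform annotation gave 1 symbol for 21789 of 35556 probe sets. A gene with several probe sets was represented by the brightest, which left 19938 genes. Probe sets with several symbols were not named, and listed genes without a named probe set were not analysed here. Replicate numbers follow the order of deposit and only name samples.

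The tests used lmFit and eBayes of limma 3.58.1 (R 4.3.3), adjusted over all genes by Benjamini-Hochberg, with a threshold of 0.05. The tamoxifen effect and the line effect over all 8 samples came from an additive model of the line and the drug (5 residual degrees of freedom), the other comparisons from a model of the 4 group means (4 residual degrees of freedom). The fits were tested on simulated data. The members and gene lists were chosen with earlier results of these data known. For each of 6 further lists, the genes named were those that passed (at most 6) or else the 2 with the smallest p. The 3 nearest profiles of 3 members, leaving out unnamed transcripts, were named too. Il6st, Il6ra, Il18, Socs3, Tyk2, Lcn2, Saa3, Relb, Nfkbie, Cdkn2a, Cdkn2b, Glb1, Hmgb2, Fgf10 and single cell type markers were named after their values were seen. Alternatives were array scaling, a repeated quantile normalization, a filter on the 30% dimmest genes, array weights, eBayes with trend and robust, other treatment of probe sets, leaving out each sample, other terms for the line, and fits of 1 line alone. The number of arrays limits the precision.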

Additional observations from a re-analysis of the deposited data

Results flagged for a closer look

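The tamoxifen effect differed between the lines at an unadjusted limma p under 0.05 for 4 of the members and genes picked by rule. None of the 4 passed after adjustment (adjusted p = 1.00 for each). The rule used p-values of these data, so this count cannot be set beside a share of all genes. Over whole lists the count was 1 of 10 members, 3 of 15 receptors and partners and 2 of 19 relatives. It was 0 of 10 inhibitors and activators, 0 of 18 NF-kappaB and C/EBP regulators and 1 of 13 genes of IL-6 family signalling. Senescence and proliferation had 1 of 7, blood cell markers 3 of 15 and the other marker lists 0, against 2.83% of all genes. For Hgf the difference, line B minus line A, was -0.52 (SE 0.17, unadjusted p = 0.013), with effects of -0.12 in line B and 0.41 in line A. For Lifr it was -0.55 (SE 0.19, unadjusted p = 0.018), with 0.25 in line B and 0.80 in line A. For Il33 it was -0.58 (SE 0.16, unadjusted p = 0.0060), with 0.23 in line B and 0.81 in line A. For Mki67 it was 0.42 (SE 0.13, unadjusted p = 0.013), with -0.49 in line B and -0.91 in line A. Groups of 2 samples are too small for a search for single samples that stand apart.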

How the results depend on the processing

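Il6 passed over both lines with array weights (1 member called) and without line B PKM1 replicate 1. In line A 2 members, Il6 and Hgf, passed with array weights and 1, Il6, in the fit of the line A samples alone. Between the lines over both treatments Tnfrsf11b did not pass after quantile normalization again or with trend and robust (0 members called in each). In the other settings run, apart from leave-outs, the number of members called did not change. Leaving out single arrays gave 0 to 1 members over both lines, 0 to 1 between the lines over both treatments and 0 in the other comparisons. Over all genes, leaving out single arrays gave 58 to 353 calls over both lines (263 with all), 0 to 143 in line A (100), 0 to 6 in line B (4), 4 to 79 between the lines without tamoxifen (65), 0 to 102 with tamoxifen (106) and 116 to 283 over both treatments (293). Array weights gave 983 calls over both lines, 525 in line A, 1 in line B and 441 between the lines over both treatments. Without a term for the line the count over both lines was 132. With every probe set on its own it was 183 in line A and 195 between the lines with tamoxifen, and the lines fitted alone gave 543 (line A) and 2 (line B). With the median of the receptor genes as background 9 members lay above it, and with their 99th percentile 6. Signs turned for members near 0 when single arrays were left out: over both lines Il1b (-0.13 to 0.015), Csf1 (-0.0028 to 0.10) and Fgf7 (-0.012 to 0.047); in line A Il1a (-0.020 to 0.024), Csf2 (-0.029 to 0.073), Fgf7 (-0.0083 to 0.14) and Plau (-0.026 to 0.27); in line B Lif (-0.10 to 0.14), Hgf (-0.26 to 0.023) and Fgf7 (-0.051 to 0.022); for the difference of the tamoxifen effect Il6 (-0.49 to 0.21), Lif (-0.19 to 0.046) and Plau (-0.072 to 0.22); between the lines without tamoxifen Hgf (-0.12 to 0.16) and Plau (-0.13 to 0.16); between the lines with tamoxifen Il1a (-0.22 to 0.11), Lif (-0.0064 to 0.14), Csf1 (-0.00027 to 0.20), Csf2 (-0.10 to 0.037) and Plau (-0.013 to 0.19); between the lines over both treatments Il1a (-0.020 to 0.11), Il1b (-0.067 to 0.062) and Csf1 (-0.086 to 0.025). Between the lines over both treatments Il1b was also at -0.0015 after array scaling, -0.00057 after quantile normalization again and -0.033 with array weights, and Csf1 at 0.0015 after quantile normalization again and 0.011 with array weights. The cause of these changes was not tested. No paired analysis was possible because the labels number no replicates.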
